A study of Mus musculus with 12 samples.

Results

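The genes described here are 42 DNA methylation and histone modifying enzymes and their partners, taken by symbol from a list and measured in mouse hearts. All 42 were among the 27179 genes of the deposited count table, and all 42 passed the filter on low counts that kept 13626 genes. Hearts came from mice exposed in utero, from embryonic day 0.5 until late gestation, to filtered air or to diesel exhaust, and operated on at 12 weeks of age. The operation was a sham procedure or transverse aortic constriction (TAC), which narrows the aorta to the width of a 27 gauge needle and loads the left ventricle with pressure. Each of the 4 groups (filtered air sham, filtered air TAC, diesel exhaust sham and diesel exhaust TAC) had 3 hearts, taken at 15 weeks, and total RNA depleted of ribosomal RNA was sequenced. The question was whether the enzymes that write, read and remove chromatin marks differed in RNA level with the prenatal exposure, with the operation, or with both. The sources used here do not give strain, sex, litter or run, so littermates may share a group, and p-values measure the spread between these hearts. In whole-heart RNA, fewer cells of a type and less RNA per cell cannot be told apart.

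DNA methyltransferases add methyl groups to cytosine in CpG dinucleotides: Dnmt3a and Dnmt3b set new marks, and Dnmt1 copies them after replication with Uhrf1, which binds hemimethylated DNA. Tet dioxygenases oxidise the mark, and methyl-CpG binding proteins read it. Histone acetyltransferases open chromatin and deacetylases reverse them. The class IIa deacetylases are known in heart muscle as signal-responsive repressors of the transcription factor MEF2, exported from the nucleus when kinases phosphorylate them. Polycomb repressive complex 2 writes the repressive methyl mark on lysine of histone H3, Kdm6b removes it, and Smyd1 is a muscle methyltransferase required for heart development.

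Of the 42 genes, 1 rose and 3 fell after TAC when the response was averaged over the exposures, against 4.1% and 3.93% of all genes tested: the maintenance methylation factor Uhrf1 rose, and the deacetylases Hdac4, Hdac5 and Hdac11 fell. The promoters of these 4 genes are shown because they carry the changes and differ in CpG content, the substrate of the first class of enzymes. They are reference sequences from RefSeq, build GRCm38.p6, 5′ to 3′ on the gene's strand, from 250 bases before to 50 bases after a transcription start, with each CG in capitals. Uhrf1 has 2 starts in that table, and the one with more CG is shown (chr17:56304063-56304362, + strand). The window of Hdac4 is chr1:92180292-92180591 (- strand), that of Hdac5 chr11:102230123-102230422 (- strand) and that of Hdac11 chr6:91156565-91156864 (+ strand). The windows shown for Hdac4 and Uhrf1 lie wholly inside the annotated genes (chr1:91928779-92195702 and chr17:56303337-56323486), away from their annotated 5′ ends.
Uhrf1: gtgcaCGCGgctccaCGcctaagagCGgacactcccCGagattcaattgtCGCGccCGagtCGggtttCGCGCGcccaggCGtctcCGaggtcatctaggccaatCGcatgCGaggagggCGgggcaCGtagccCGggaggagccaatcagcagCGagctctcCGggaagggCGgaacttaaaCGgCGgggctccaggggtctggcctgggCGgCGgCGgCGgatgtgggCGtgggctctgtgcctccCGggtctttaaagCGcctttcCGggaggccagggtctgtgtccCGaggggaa
Hdac4: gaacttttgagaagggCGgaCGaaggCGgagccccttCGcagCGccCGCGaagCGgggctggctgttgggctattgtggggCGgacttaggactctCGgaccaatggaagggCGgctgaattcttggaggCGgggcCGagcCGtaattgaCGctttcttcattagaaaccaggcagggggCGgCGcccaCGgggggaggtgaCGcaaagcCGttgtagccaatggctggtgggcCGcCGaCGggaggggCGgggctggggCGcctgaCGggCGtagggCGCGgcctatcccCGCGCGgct
Hdac5: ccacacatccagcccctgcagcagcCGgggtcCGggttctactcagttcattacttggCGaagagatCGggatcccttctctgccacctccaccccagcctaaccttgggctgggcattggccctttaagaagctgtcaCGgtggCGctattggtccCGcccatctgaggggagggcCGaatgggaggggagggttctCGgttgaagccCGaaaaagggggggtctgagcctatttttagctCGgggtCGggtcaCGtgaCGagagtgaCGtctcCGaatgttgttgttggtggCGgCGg
Hdac11: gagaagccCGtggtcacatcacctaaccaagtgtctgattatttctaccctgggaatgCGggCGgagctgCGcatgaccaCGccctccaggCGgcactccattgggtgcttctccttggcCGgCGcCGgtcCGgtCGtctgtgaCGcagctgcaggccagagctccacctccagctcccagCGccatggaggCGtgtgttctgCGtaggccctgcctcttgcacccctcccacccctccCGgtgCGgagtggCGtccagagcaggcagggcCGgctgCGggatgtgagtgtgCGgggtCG

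The Uhrf1 promoter shown held 33 CG and that of Hdac4 32, counts reached by 8.56% and 9.522% of all 32851 promoters of 300 bases. The other Uhrf1 start (chr17:56303087-56303386), not shown, held 12 CG, reached by 39.59%. Hdac11 held 22 CG and Hdac5 18, reached by 23.1% and 29.72%. The median was 7 over all promoters and 23 over the 48 starts of the 35 members found in the table. Mbd1, Mbd2, Hdac1, Hdac3, Hdac10, Kdm5a and Kdm6b had no entry. An E2F motif (TTTCCCGC, TTTCGCGC, TTTGCCGC or TTTGGCGC, on either strand) occurred 1 time in the Uhrf1 promoter shown and in 5 of the 48 member starts, against 2.265% of all promoters. The Uhrf1 match overlapped no GC box, and the other Uhrf1 start had no E2F match. A MEF2 consensus motif, searched on both strands, occurred in 1 member start, that of Hdac5, against 3.187% of all promoters. The GC box GGGCGG, on either strand, occurred 5 times in the Hdac4 promoter and in 30 of the 48 starts (62.5%), against 35.66% of all promoters. Every E2F and GC box sequence searched holds a CG, and the median CG count was higher in the member starts than over all promoters. The part of CG content in these shares was not tested. These matches describe the letters of the window only.

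The libraries held 5534685 to 13265816 counts, and mitochondrially encoded RNA took 18.3% to 32.4% of them. Diesel exhaust sham replicate 2 was the lowest in both. A count of 3 in a library, taken as the floor, corresponded to 0.217 to 0.501 CPM, read counts put on a common scale between libraries, which covers counting error only. The operation's hallmark genes rose in TAC hearts averaged over exposures: Nppa by 3.84 ± 0.36, Nppb by 2.15 ± 0.19, Myh7 by 1.26 ± 0.20 and Postn by 3.47 ± 0.24 on the log2 scale (± SE). All 8 markers each of cardiomyocytes, fibroblasts, endothelium and macrophages were above 0 in every library, so the defining markers of heart muscle, Myh6, Tnnt2 and Tnni3, were present. Summed cardiomyocyte markers were at 52622 to 68198 CPM in filtered air sham and 56516 to 66341 in diesel exhaust sham, against 34430 to 55620 and 35829 to 41495 after TAC. Summed fibroblast markers were at 727 to 925 CPM over both sham groups' libraries and at 1410 to 2967 over the TAC libraries. Of 8 cardiomyocyte markers 4 fell after TAC, and of 8 fibroblast markers 6 rose. Of 8 macrophage markers 3 rose (Mrc1, Cx3cr1 and Csf1r), and the sum of all 8 was at 148 to 170 CPM in filtered air sham and 144 to 272 in diesel exhaust sham, against 199 to 281 and 243 to 271 after TAC. The part of these markers in the results that follow was not tested.

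Levels of different genes were compared per length, as CPM per kb of exon. Lengths came from GENCODE M21, and the sources used here do not give the annotation version of the counts. Levels compared between genes are therefore approximate. Smyd1 was the most abundant member at 92.4 CPM per kb (73.4 to 116 over the 12 hearts), followed by Smyd2, another lysine methyltransferase, at 42.2 (37.9 to 45.9). The methyl-CpG reader Mbd2 came next at 22.4 (18.0 to 30.8), and the ranges of these 3 genes did not overlap. The mitochondrial deacetylase Sirt3 at 15.8, the acetyltransferase Kat2b at 15.0, Hdac3 at 14.1 and Mbd3 at 13.4 CPM per kb followed, with overlapping ranges. Exons of Smyd2, taken as 1680 bases long, overlap the antisense gene Gm37422 over 814 bases. Exons of Sirt3, taken as 1724 bases, overlap Psmd13 over 342 and Ric8a over 418 bases, both on the other strand. The sources used here do not give the strand setting, so the levels and ranks of Smyd2 and Sirt3 are uncertain. At the other end stood Ezh2 at 1.38, Tet1 at 0.819, Uhrf1 at 0.526 and Dnmt3b at 0.310 CPM per kb. Per length, Ezh2 was at 0.209 ± 0.101 of the level of its relative Ezh1 in filtered air sham, 0.278 ± 0.0998 in filtered air TAC, 0.180 ± 0.0656 in diesel exhaust sham and 0.330 ± 0.116 in diesel exhaust TAC (SD, n = 3). Dnmt3b was at 0.0395 to 0.0845 of Dnmt3a in the 4 group means. The plot of levels by gene shows this span. Spread between hearts of 1 group was least for Smyd2 (coefficient of variation 7.10%) and Kdm5a (8.96%), and greatest for Dnmt3b (97.8%), Hdac8 (49.2%) and Tet1 (43.4%).

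**Figure D1:**
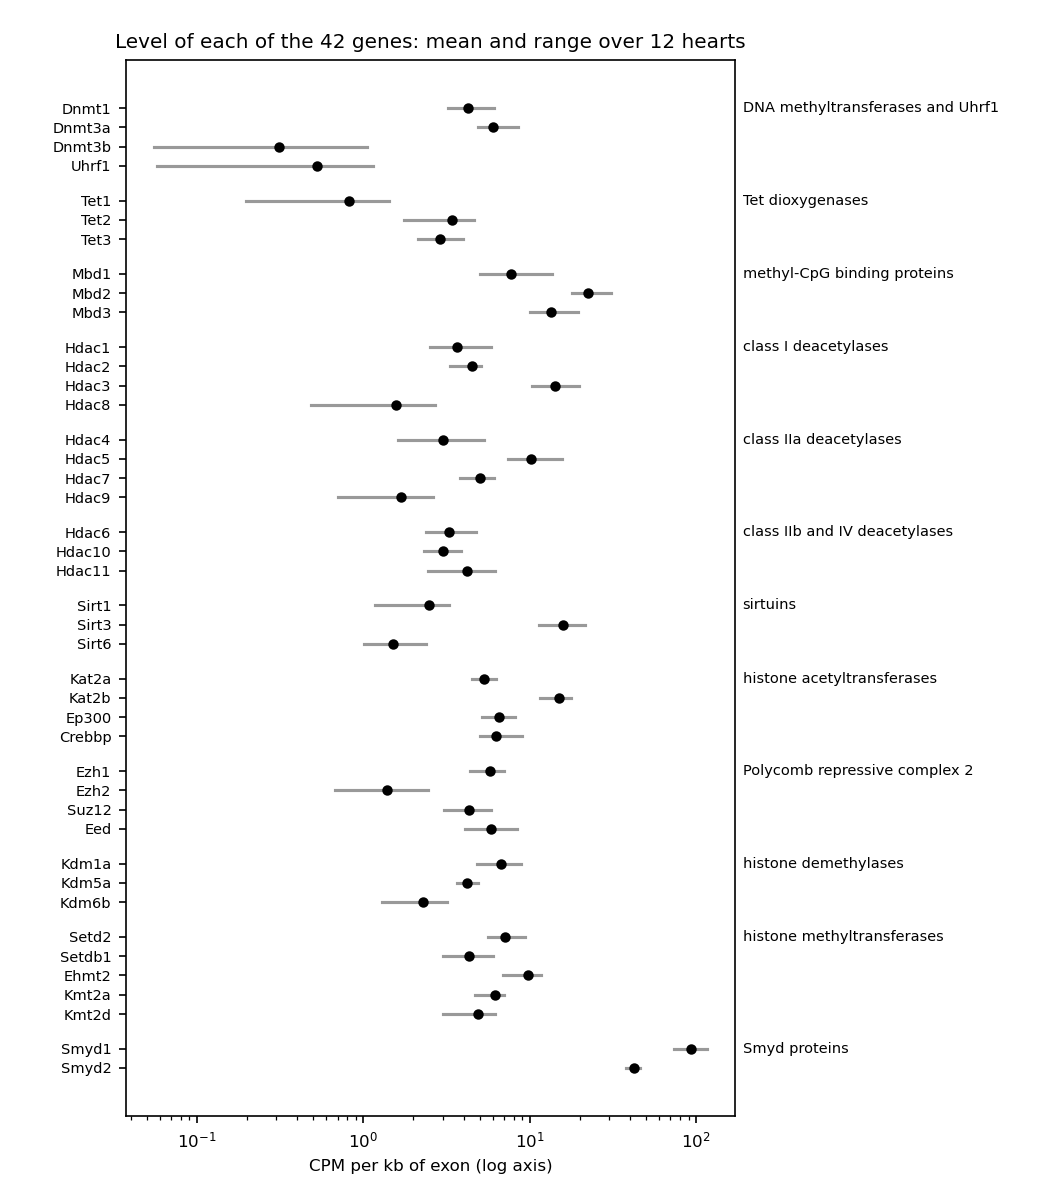
Level of each of the 42 genes in CPM per kb of exon (log axis), grouped by enzyme class; points are means and bars the range over 12 hearts. Smyd1 and Smyd2 lie above the other genes, and Dnmt3b and Uhrf1 lie lowest.

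TAC against sham was tested within each exposure and averaged over both. In filtered air no member passed the adjusted p threshold of 0.05 (0 of 42, against 0.829% of all genes tested), and after diesel exhaust none did (0 of 42, against 3.24%). At an unadjusted p under 0.05, 6 members (14.3%) were met in filtered air and 4 (9.52%) after diesel exhaust, against 11.1% and 15.9% of all genes, by edgeR's quasi-likelihood test. The libraries of sham and TAC did not overlap for 4 members (9.52%) in filtered air, against 15.8% of all genes, and for 10 (23.8%) after diesel exhaust, against 22.3%. In filtered air these were Uhrf1, which was higher, and Hdac11, Ezh1 and Kdm6b, which were lower. After diesel exhaust Uhrf1 and Hdac1 were higher, and Hdac3, Hdac4, Hdac5, Hdac11, Kat2b, Kdm6b, Kmt2a and Kmt2d were lower. DESeq2 called 1 member in each, Uhrf1 in filtered air and Hdac11 after diesel exhaust. Over all 13626 genes tested, DESeq2 called 258 in filtered air and 676 after diesel exhaust, more than edgeR did. Averaged over exposures, edgeR called 4 of 42 (9.52%), against 8.03% of all genes, so the share of members called was near the background. With the 2 groups of 6 hearts, 3 members did not overlap (7.14%), against 4.31% of all genes: Uhrf1 was higher, and Hdac11 and Kdm6b were lower. The median log2 fold change over the members was -0.09 in filtered air, -0.14 after diesel exhaust and -0.06 averaged, against 0.00 over all genes in each. Of the 42 genes, 18 (42.9%) were lower after TAC in both exposures, against 33.5% of all genes, 8 (19%) were higher in both, against 34%, and 16 (38.1%) had opposite signs, against 32.6%. The plot of both TAC responses shows most genes within 0.5 log2 units of 0.

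**Figure D2:**
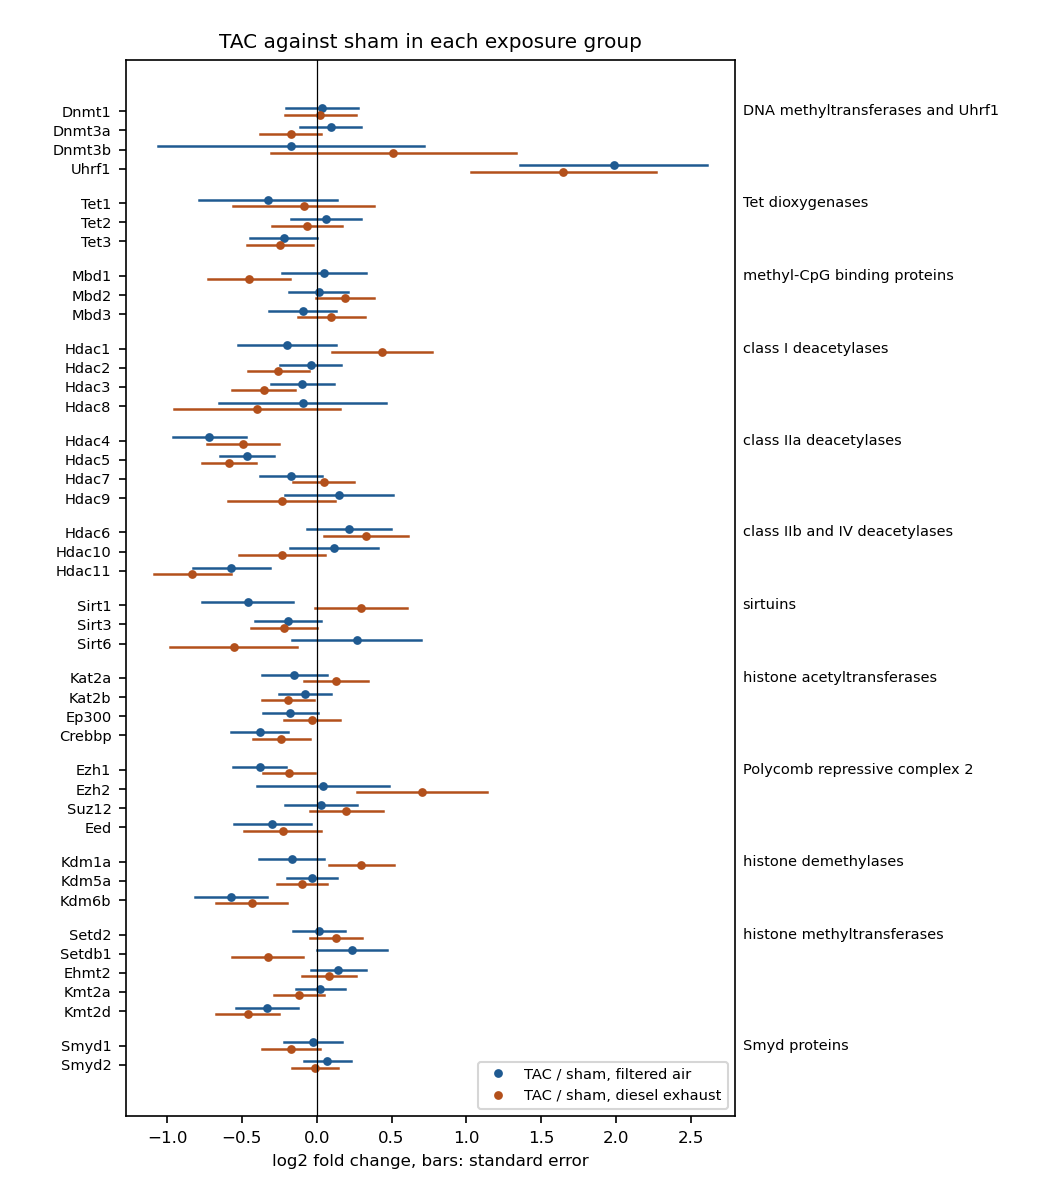
Log2 fold change of TAC against sham (points) with its standard error (bars) in filtered air (blue) and after diesel exhaust (brown), 3 hearts a group, by enzyme class. Uhrf1 is the member above 1 in both exposures, and Hdac4, Hdac5, Hdac11 and Kdm6b are below 0 in both.

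Among the DNA methylation writers, Uhrf1 (gene number 18140, chr17:56303337-56323486 in GRCm38.p6) rose after TAC. It measured 0.211, 1.32 and 0.972 CPM in the filtered air sham hearts and 4.16, 3.003 and 2.51 CPM in the filtered air TAC hearts. After diesel exhaust it measured 0.637, 1.00 and 1.009 CPM in sham and 2.46, 2.90 and 2.98 CPM in TAC. Every TAC heart was above every sham heart, and the TAC groups overlapped each other. Averaged over exposures the rise was 3.52-fold (log2 1.82 ± 0.44, adjusted p = 0.0123). The change was 1.98 ± 0.63 in filtered air (adjusted p = 0.166) and 1.65 ± 0.62 after diesel exhaust (adjusted p = 0.169), and their difference was -0.34 ± 0.88. Sham levels rest on few reads: 2, 9 and 6 counts in filtered air and 5, 6 and 7 after diesel exhaust, so the fold is imprecise (95% interval 0.90 to 2.73 in log2). The call held in each of the 12 fits that left out 1 library, with adjusted p up to 0.0328. Summed markers of proliferating cells moved with it, at 33.4 to 41.8 CPM over the sham libraries, 46.6 to 60.4 in filtered air TAC and 60.2 to 72.4 in diesel exhaust TAC. Of the 7 tested, Top2a (1.58 ± 0.27, adjusted p = 0.000818), Mki67 (0.88 ± 0.19, adjusted p = 0.00631) and Mcm2 (0.81 ± 0.25, adjusted p = 0.0467) rose, 4 did not pass, up to 2 of the 10 listed were at 0 in a sham library, and their part in the Uhrf1 result was not tested.

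The methyltransferases themselves did not pass the test. Dnmt1, which Uhrf1 recruits to replicated DNA, was at 27.2 ± 9.79 CPM (SD, n = 3) in filtered air sham and 28.0 ± 5.55 in filtered air TAC, and at 26.1 ± 5.14 and 26.5 ± 3.09 after diesel exhaust. Its averaged TAC change was 0.03 ± 0.17, with a 95% interval of -0.32 to 0.38. Dnmt3a, the de novo enzyme with the higher level here, was at 56.1 ± 11.5, 60.0 ± 11.8, 64.6 ± 17.3 and 57.3 ± 5.51 CPM in the same order, with a change of -0.04 ± 0.14. Sham and TAC hearts overlapped for both genes. Dnmt3b measured 0.740, 1.32 and 1.13 CPM in filtered air sham, 0.238, 1.38 and 1.19 in filtered air TAC, 2.68, 0.334 and 1.15 in diesel exhaust sham and 4.56, 0.780 and 0.596 in diesel exhaust TAC. The value of diesel exhaust TAC replicate 1 stands apart from the other 2 of its group, and 2 libraries held only 2 counts.

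Sham and TAC hearts also overlapped for the 3 Tet dioxygenases. Tet1, the least abundant, measured 20.6, 12.0 and 15.1 CPM in filtered air sham, 18.8, 10.9 and 8.47 in filtered air TAC, 17.3, 2.84 and 8.22 in diesel exhaust sham and 9.56, 7.13 and 10.3 in diesel exhaust TAC. Its lowest value, in diesel exhaust sham replicate 2, came from the library with the lowest total. Tet3 measured 45.7, 27.6 and 36.8 CPM in filtered air sham and 40.1, 29.5 and 24.9 in filtered air TAC, 46.3, 35.9 and 28.4 in diesel exhaust sham and 33.8, 29.1 and 30.4 in diesel exhaust TAC. The averaged TAC change was -0.23 ± 0.16 for Tet3, -0.21 ± 0.33 for Tet1 and 0.00 ± 0.17 for Tet2. None passed (adjusted p = 0.432, 0.788 and 0.997). Among the Mbd genes, Mbd1 measured 17.8, 25.0 and 21.1 CPM in filtered air sham, 20.7, 15.0 and 30.1 in filtered air TAC, 21.0, 40.9 and 23.2 in diesel exhaust sham and 21.5, 24.8 and 15.7 in diesel exhaust TAC. Diesel exhaust sham replicate 2 was the highest, and the groups overlapped. Its change was -0.20 ± 0.20, that of Mbd2 0.10 ± 0.14 and that of Mbd3, a subunit of the NuRD repressor complex, 0.00 ± 0.16, with none past the threshold. The plot of the Dnmt and Tet genes gives each heart.

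**Figure D3:**
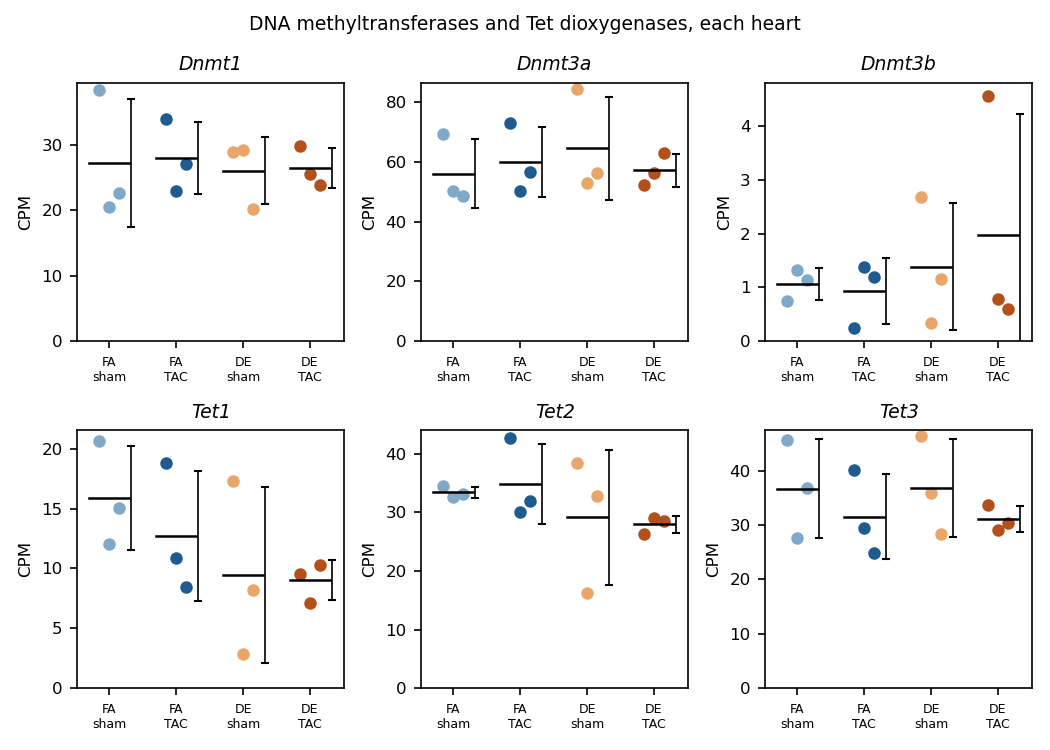
CPM of Dnmt1, Dnmt3a, Dnmt3b, Tet1, Tet2 and Tet3 in each heart (points), with group means (lines) and SD (bars), n = 3, for filtered air (FA) and diesel exhaust (DE). Sham and TAC hearts overlap, the first-listed heart is the highest in 3 of 4 groups for Dnmt1, Dnmt3a and Tet1, and Dnmt3b has 1 high diesel exhaust TAC heart, whose group's SD bar is clipped at 0.

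Of the 11 zinc-dependent histone deacetylases, 3 fell after TAC averaged over exposures and none rose, where 3.93% of all genes tested fell and 4.1% rose. Those that fell were 0 of 4 in class I, 2 of 4 in class IIa and 1 of 3 in classes IIb and IV. Over all 42 members the share called, 9.52%, was near the 8.03% of all genes. Hdac5 (gene number 15184, chr11:102195747-102230172 in GRCm38.p6), a class IIa enzyme that holds MEF2 target genes down in cardiomyocytes, measured 67.2, 70.2 and 50.7 CPM in filtered air sham and 41.9, 42.7 and 51.7 in filtered air TAC. After diesel exhaust it measured 61.8, 87.4 and 69.5 CPM in sham and 44.0, 50.4 and 51.1 in TAC. The diesel exhaust groups did not overlap, and in filtered air 1 sham heart, at 50.7 CPM, lay within the TAC range. Averaged, Hdac5 fell 1.44-fold (log2 -0.53 ± 0.13, adjusted p = 0.0126). The change was -0.47 ± 0.18 in filtered air (adjusted p = 0.314) and -0.59 ± 0.18 after diesel exhaust (adjusted p = 0.0819). The averaged call held in each of the 12 fits without 1 library, with adjusted p up to 0.0400.

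Hdac4 (gene number 208727, chr1:91928779-92195702), the class IIa relative that responds to the kinase CaMKII, measured 20.9, 42.7 and 25.9 CPM in filtered air sham and 21.0, 13.1 and 20.0 in filtered air TAC. After diesel exhaust it measured 30.5, 28.0 and 29.4 CPM in sham and 23.3, 21.1 and 18.1 in TAC. Filtered air sham replicate 2 was the highest of all hearts, and the filtered air groups overlapped while the diesel exhaust groups did not. Averaged, Hdac4 fell 1.52-fold (log2 -0.61 ± 0.17, adjusted p = 0.0326). This call was lost in 6 of the 12 fits without 1 library: without filtered air sham replicate 2 (adjusted p = 0.119) or TAC replicate 2 (0.110), diesel exhaust sham replicate 1 (0.0644) or 3 (0.0621), and diesel exhaust TAC replicate 2 (0.0665) or 3 (0.0891). Exons of Hdac4 overlap those of the antisense gene Gm26720 over 3536 bases, so reads of the 2 cannot be told apart without strand, a setting the sources used here do not give.

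Hdac11 (gene number 232232, chr6:91156670-91174692), the only class IV deacetylase, measured 14.2, 12.3 and 13.1 CPM in filtered air sham and 10.8, 7.26 and 8.59 in filtered air TAC. After diesel exhaust it measured 14.5, 12.2 and 16.4 CPM in sham and 6.45, 9.36 and 8.54 in TAC. All 6 TAC hearts lay below all 6 sham hearts. Averaged, Hdac11 fell 1.63-fold (log2 -0.70 ± 0.18, adjusted p = 0.0192), with -0.57 ± 0.26 in filtered air (adjusted p = 0.405) and -0.83 ± 0.26 after diesel exhaust (adjusted p = 0.0830). The call was lost without filtered air TAC replicate 2 (adjusted p = 0.0667), diesel exhaust sham replicate 3 (0.0538) or diesel exhaust TAC replicate 1 (0.0521). Its exons overlap those of Gm44002 over 594 bases and of Gm14573 over 96 bases, both on the other strand. Summed cardiomyocyte markers were lower in TAC than in sham beside all 3 deacetylases, with ranges that overlapped in filtered air and not after diesel exhaust, and their part in these falls was not tested. The difference between the exposures in the TAC change was 0.23 ± 0.34 for Hdac4, -0.12 ± 0.26 for Hdac5 and -0.26 ± 0.36 for Hdac11, and none passed the interaction test.

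**Figure D4:**
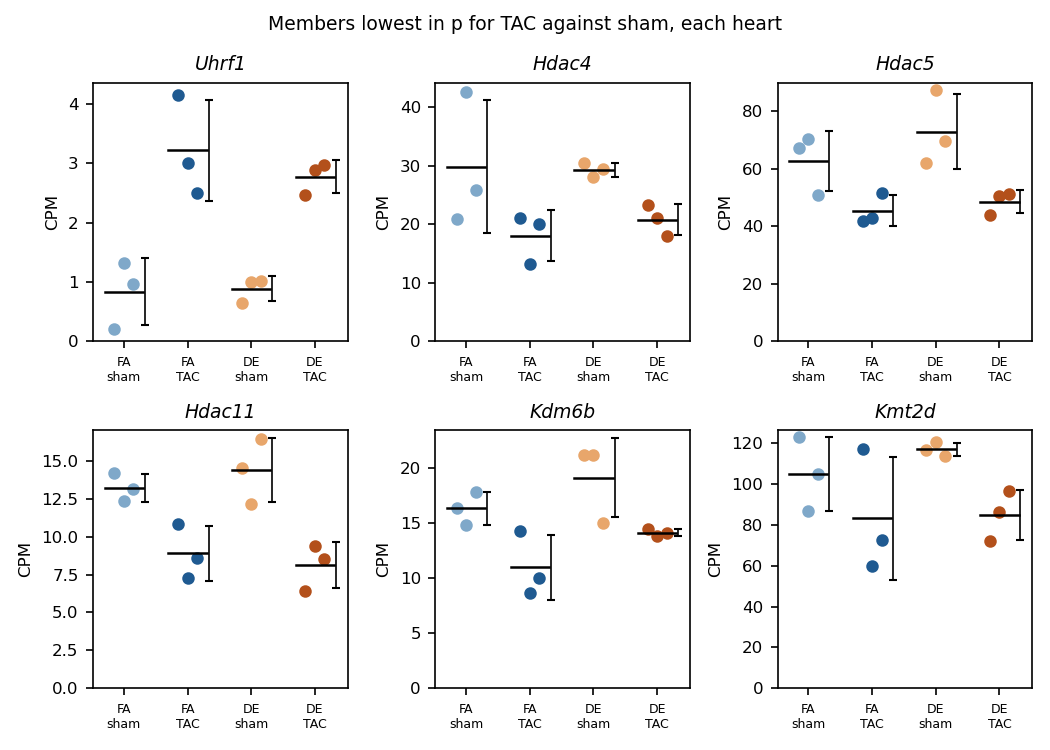
CPM of the 6 members lowest in p for TAC against sham averaged over exposures, in each heart (points), with group means (lines) and SD (bars), n = 3, for filtered air (FA) and diesel exhaust (DE). Uhrf1 is higher in all TAC hearts than in all sham hearts, Hdac11 and Kdm6b are lower in all TAC hearts, and Hdac4, Hdac5 and Kmt2d overlap.

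The other class IIa members did not move with Hdac4 and Hdac5 past the threshold. Hdac7, known best from endothelium, had an averaged TAC change of -0.06 ± 0.15 and Hdac9, an MEF2 repressor of muscle, -0.04 ± 0.25. Among the class I enzymes, which work in the NuRD, Sin3 and NCoR complexes, Hdac3 measured 30.2, 32.3 and 29.6 CPM in filtered air sham, 21.0, 24.9 and 40.2 in filtered air TAC, 33.7, 28.9 and 30.4 in diesel exhaust sham and 24.5, 24.3 and 23.9 in diesel exhaust TAC. The 3 diesel exhaust TAC hearts lay below the 3 diesel exhaust sham hearts, while filtered air TAC replicate 3 was the highest of all. The averaged change of Hdac3 was -0.23 ± 0.15 (adjusted p = 0.416), of Hdac1 0.12 ± 0.23, of Hdac2 -0.15 ± 0.15 and of Hdac8 -0.25 ± 0.39. Hdac6, a cytoplasmic tubulin deacetylase, measured 12.0, 11.0 and 12.5 CPM in filtered air sham, 18.9, 12.4 and 9.90 in filtered air TAC, 14.7, 11.2 and 12.3 in diesel exhaust sham and 10.4, 18.2 and 19.7 in diesel exhaust TAC, with overlapping groups. Its change was 0.27 ± 0.20 and that of Hdac10, a polyamine deacetylase, -0.06 ± 0.21. Of the sirtuins, which use NAD+, Sirt3 measured 37.1, 28.9 and 25.8 CPM in filtered air sham, 32.6, 19.6 and 28.3 in filtered air TAC, 31.7, 30.2 and 21.5 in diesel exhaust sham and 23.03, 25.0 and 23.7 in diesel exhaust TAC. Sham and TAC overlapped in both exposures. The averaged log2 difference was -0.21 ± 0.15 for Sirt3, -0.08 ± 0.22 for Sirt1 and -0.14 ± 0.30 for Sirt6, none past the threshold.

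None of the 4 acetyltransferases passed the test. Crebbp, the CREB-binding coactivator, measured 96.9, 68.5 and 70.3 CPM in filtered air sham, 71.3, 54.7 and 55.0 in filtered air TAC, 87.8, 56.2 and 73.1 in diesel exhaust sham and 58.7, 62.4 and 63.5 in diesel exhaust TAC. Its averaged change was -0.31 ± 0.13 (unadjusted p = 0.0311 and adjusted p = 0.179 by edgeR), and sham and TAC hearts overlapped. The averaged log2 difference was -0.10 ± 0.13 for its paralog Ep300, -0.01 ± 0.15 for Kat2a and -0.14 ± 0.12 for Kat2b. Kat2b measured 58.6, 73.1 and 77.4 CPM in filtered air sham, 53.5, 62.9 and 81.4 in filtered air TAC, 75.7, 73.4 and 82.0 in diesel exhaust sham and 65.1, 64.4 and 72.7 in diesel exhaust TAC. The diesel exhaust TAC hearts lay just below the diesel exhaust sham hearts, and the filtered air groups overlapped.

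In Polycomb repressive complex 2, Ezh1, the catalytic subunit of resting cells, measured 41.7, 35.5 and 36.3 CPM in filtered air sham, 26.5, 26.8 and 33.9 in filtered air TAC, 42.3, 40.6 and 34.2 in diesel exhaust sham and 33.8, 36.2 and 32.9 in diesel exhaust TAC. The filtered air groups did not overlap and the diesel exhaust groups did. The averaged change of Ezh1 was -0.28 ± 0.12 (adjusted p = 0.186). That of Ezh2, its counterpart in dividing cells, was 0.37 ± 0.31 (adjusted p = 0.541), from 3.54 ± 1.5 to 3.61 ± 0.953 CPM in filtered air and from 3.17 ± 0.893 to 5.17 ± 1.68 CPM after diesel exhaust (SD, n = 3). The core subunits Suz12 and Eed had log2 differences of 0.11 ± 0.17 and -0.26 ± 0.18, and no member of the complex passed.

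Kdm6b, the demethylase that removes the Polycomb mark, measured 16.4, 14.8 and 17.8 CPM in filtered air sham and 14.3, 8.63 and 10.02 in filtered air TAC. After diesel exhaust it measured 21.2, 21.2 and 15.0 CPM in sham and 14.5, 13.8 and 14.1 in TAC. All TAC hearts lay below all sham hearts, and the change was -0.50 ± 0.17, which missed the threshold (adjusted p = 0.0712). It was past the threshold by DESeq2 (adjusted p = 0.0469). The demethylases Kdm1a and Kdm5a had log2 differences of 0.07 ± 0.16 and -0.07 ± 0.12. Among the methyltransferases, Kmt2d, which marks enhancers, measured 123, 86.7 and 105 CPM in filtered air sham, 117, 59.9 and 72.4 in filtered air TAC, 117, 120 and 114 in diesel exhaust sham and 71.9, 86.3 and 96.5 in diesel exhaust TAC. The diesel exhaust groups did not overlap, filtered air TAC replicate 1 lay among the sham hearts, and the averaged change was -0.40 ± 0.15 (adjusted p = 0.107). Without that library the adjusted p by edgeR was 0.00754 for Kmt2d and 0.0242 for Kdm6b. That was the only 1 of the 12 fits without 1 library in which either gene passed. Without filtered air TAC replicate 2 the adjusted p by edgeR rose to 0.280 for Kmt2d and 0.203 for Kdm6b. Setd2, Setdb1, Ehmt2 and Kmt2a had averaged changes of 0.07 ± 0.12, -0.05 ± 0.17, 0.11 ± 0.13 and -0.05 ± 0.12. Smyd1 measured 479, 361 and 456 CPM in filtered air sham, 527, 354 and 393 in filtered air TAC, 530, 334 and 443 in diesel exhaust sham and 356, 407 and 398 in diesel exhaust TAC. The groups overlapped, with the first-listed heart the highest in 3 of the 4. Smyd1 and Smyd2 had log2 differences of -0.10 ± 0.14 and 0.03 ± 0.11, with 95% intervals of -0.38 to 0.19 and -0.20 to 0.26.

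Diesel exhaust against filtered air was tested in sham hearts, in TAC hearts and averaged over the operations. The sham and TAC tests use separate hearts, while each shares groups with the TAC tests already given. No member passed in sham (0 of 42) or in TAC (0 of 42), and none of the 13626 genes did in either comparison (0%). At an unadjusted p under 0.05 by edgeR no member was met in any of these comparisons, against 3.67% of all genes in sham, 1.87% in TAC and 3.32% averaged. DESeq2 called 0 members as well. In sham hearts, 4 members (9.52%) did not overlap between the exposures, against 7.59% of all genes: Kmt2a was higher after diesel exhaust, and Mbd3, Hdac1 and Sirt1 were lower. In TAC hearts 3 members (7.14%) did not overlap, against 7.71%: Kat2a and Ehmt2 were higher and Tet2 was lower. These shares are near the background, and no member was without overlap over all 6 hearts of each exposure, against 0.0734% of all genes.

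For these hearts, the values limit how large a change could have been missed. The intervals hold gene by gene, with no allowance for the number of genes or for litters shared within a group. The 95% interval of the fold change stayed within 2-fold for 33 of the 42 genes in sham, 36 in TAC and 40 averaged over the operations, and within 1.5-fold for 16, 19 and 30. The averaged exposure change was -0.07 ± 0.17 for Dnmt1 (95% interval -0.42 to 0.27), 0.07 ± 0.14 for Dnmt3a (-0.23 to 0.37), -0.06 ± 0.14 for Smyd1 (-0.34 to 0.22) and 0.15 ± 0.13 for Hdac5 (-0.11 to 0.42). The greatest point values were in 2 genes of low level and wide spread. Dnmt3b differed by 0.77 ± 0.61 (interval -0.49 to 2.02, unadjusted p = 0.220 by edgeR), a value that was -0.0086 without diesel exhaust TAC replicate 1. Tet1 differed by -0.61 ± 0.33 (interval -1.32 to 0.10, unadjusted p = 0.0849 by edgeR), with filtered air hearts at 8.47 to 20.6 CPM and diesel exhaust hearts at 2.84 to 17.3 CPM, which overlap. The Tet1 value was -0.999 without diesel exhaust sham replicate 1 and -0.405 without diesel exhaust sham replicate 2. The plot of exposure changes shows these intervals.

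**Figure D5:**
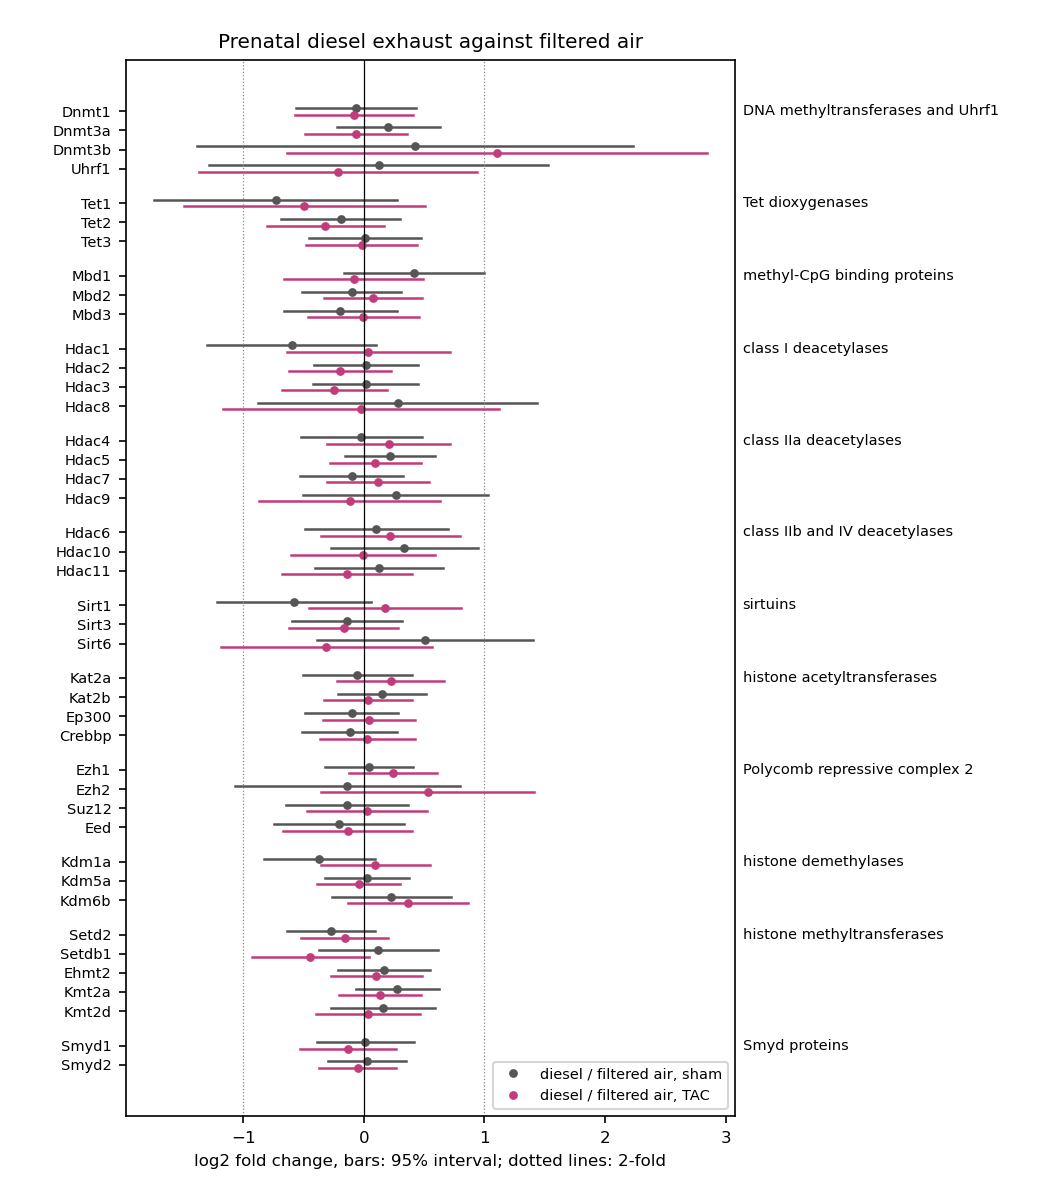
Log2 fold change of diesel exhaust against filtered air (points) with its 95% interval (bars) in sham (grey) and TAC hearts (pink), 3 hearts a group; dotted lines mark 2-fold. Every interval includes 0, and those of Dnmt3b, Uhrf1, Tet1, Hdac8, Sirt6 and Ezh2 reach beyond 2-fold in both operations.

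By class, the smallest p of the averaged exposure test was that of Dnmt3b, Tet1, Mbd1, Hdac1, Hdac5, Hdac6, Sirt3, Kat2b, Ezh1, Kdm6b, Kmt2a and Smyd1. Hdac1 measured 11.8, 7.34 and 6.80 CPM in filtered air sham, 5.11, 11.1 and 6.56 in filtered air TAC, 5.86, 5.17 and 6.20 in diesel exhaust sham and 8.33, 6.46 and 8.54 in diesel exhaust TAC. The diesel exhaust sham hearts were the lowest sham hearts, and the TAC groups overlapped. Hdac1 has a processed pseudogene, and since the handling of multimapping reads is not given in the sources used here, its level is uncertain. Kmt2a, a methyltransferase of active promoters, measured 101, 90.3 and 87.5 CPM in filtered air sham, 115, 77.1 and 92.1 in filtered air TAC, 113, 110 and 115 in diesel exhaust sham and 96.8, 105 and 110 in diesel exhaust TAC. The diesel exhaust sham hearts lay above the filtered air sham hearts, and the TAC groups overlapped. Its exposure change was 0.28 ± 0.16 in sham and 0.13 ± 0.16 in TAC (unadjusted p = 0.107 and 0.425 by edgeR). The averaged exposure changes of Kdm6b, Setd2 and Hdac1 were 0.30 ± 0.17, -0.22 ± 0.12 and -0.28 ± 0.23. None passed.

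The exposure by surgery interaction asked whether the TAC response differed between the exposures. No member passed (0 of 42, and 0% of all genes), none was met at an unadjusted p under 0.05 by edgeR against 2.39% of all genes, and DESeq2 called 0 members. The smallest p was that of Sirt1, an NAD+-dependent nuclear deacetylase, with a difference of 0.76 ± 0.43 (unadjusted p = 0.0945 by edgeR). Sirt1 measured 13.6, 13.1 and 14.4 CPM in filtered air sham, 5.23, 11.3 and 13.4 in filtered air TAC, 9.05, 7.84 and 10.5 in diesel exhaust sham and 8.402, 11.4 and 14.0 in diesel exhaust TAC. Its filtered air TAC replicate 1 was the lowest of all hearts, and TAC and sham overlapped in both exposures. Sirt6 had the most negative difference, -0.82 ± 0.60. The interaction is the least precise test: its 95% interval stayed within 2-fold for 28 of the 42 genes and within 1.5-fold for 2.

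Further genes of the same pathways were counted for the averaged TAC test, from lists of related genes, where 8.03% of all genes tested were called, 4.1% higher and 3.93% lower. Of 25 other Polycomb genes 1 fell, the chromodomain reader Cbx7 (-0.76 ± 0.21, adjusted p = 0.0306). Of 37 other histone methyltransferases 1 rose and 1 fell: Setd7 was higher (log2 0.40 ± 0.11, adjusted p = 0.0315) and Smyd3 lower (log2 -0.80 ± 0.25, adjusted p = 0.0455). Both lists had a smaller share called than all genes. None of 13 other DNA methylation genes, 22 other deacetylase and corepressor genes, 19 acetyltransferase and bromodomain genes or 19 other demethylases passed. Of 18 partners of class IIa deacetylases in the heart, 2 fell, against 3.93% of all genes. Hopx, a homeodomain-only protein that recruits deacetylases, fell (log2 -1.02 ± 0.13, adjusted p = 2.37e-05), as did Camk2a, a CaM kinase subunit (log2 -0.79 ± 0.14, adjusted p = 0.00121). The MEF2 factors did not pass, with changes of -0.40 ± 0.21 for Mef2a, 0.06 ± 0.14 for Mef2c and -0.37 ± 0.15 for Mef2d. Of the 19 genes of cofactor metabolism reported here, which supply methyl groups and 2-oxoglutarate, 2 fell, against the same 3.93%. They were methionine synthase Mtr (-0.63 ± 0.13, adjusted p = 0.00358) and the 2-hydroxyglutarate dehydrogenase D2hgdh (-0.64 ± 0.16, adjusted p = 0.0127). In the exposure and interaction tests no gene of any of these lists passed.

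The libraries also differed in a way the groups do not explain. The first principal component of the deviations from group means took 27.3% of that variance, and the first-listed heart of each group scored 0.198 to 0.5004 on it while the other 8 hearts scored below 0. Crebbp, Setdb1, Dnmt3a, Tet3, Tet1, Ep300, Smyd1 and Dnmt1 followed it most closely among the members (Pearson r 0.748 to 0.911 over 12 hearts, as a description). Since the sequencing run of each heart is not given in the sources used here, the hearts were not split by it. With this component as a covariate, an alternative chosen after seeing the data, 6 members were called by edgeR for TAC averaged over exposures. They were the same 4, with Kdm6b (adjusted p = 0.0375) and Kmt2d (adjusted p = 0.0329), of 1628 genes in all against 1094 without it. The component was computed from the deviations in these same counts, so it lowers the spread between hearts by construction. The added calls are therefore no separate support. Without diesel exhaust sham replicate 2, the library with the lowest total, the same 4 members were called.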

How the data were processed

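The authors deposited raw counts, keyed by Entrez gene number, from ribosome-depleted total RNA sequenced on an Ion instrument; reads were trimmed with cutadapt 1.6, aligned with Subread 1.4.2 to mm10 and counted with featureCounts, per the submitters' processing notes. The sources used here do not give the strand setting, the handling of multimapping reads or the annotation version. Symbols were matched on the gene number to RefSeq for 25275 of 27179 genes. R 4.3.3 with edgeR 4.0.16 was used: TMM factors, filterByExpr with a count minimum of 10 (13626 genes), and a robust quasi-likelihood fit with a mean per group over 12 libraries and 8 residual degrees of freedom. The Benjamini-Hochberg adjustment ran over all genes tested in each of 7 comparisons, with a threshold of 0.05. CPM use TMM-scaled totals, and lengths are unions of GENCODE M21 exons. SE come from the fold change and its F statistic. Scripts were tested on simulated data. Totals of 5534685 to 13265816 counts set the precision. Alternatives were other size factors, no filter, DESeq2 1.42.0, voom of limma 3.58.1 and leaving out each library. The lists of related genes and their counts leave out 2 genes that are not reported here. Members, lists and tests were chosen with earlier results of these data known. By rule, values per heart are given for members past the threshold and, in each class, for those with the smallest p in the averaged TAC and exposure tests; Kdm5a, Ezh2, Sirt1 and other members appear by class.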

Additional observations from a re-analysis of the deposited data

How the results depend on the processing

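The members called for TAC averaged over exposures numbered 4, and between 4 and 6 under the other 8 settings that kept every library. The 6 came with the first residual component as a covariate, which lowers the spread by construction, and DESeq2 gave 5. Calls over all genes rose as well, to 1628 with the covariate and 1373 with DESeq2, against 1094. Leaving out 1 library at a time gave 2 to 6 members, with 2 (Uhrf1 and Hdac5) without filtered air TAC replicate 2 and without diesel exhaust sham replicate 3, while calls over all genes ran from 631 to 1214 against 1094. For TAC in filtered air the count of 0 became 1 with DESeq2 (Uhrf1), where all genes gave 258 against 113. For TAC after diesel exhaust it became 1 with DESeq2 (Hdac11) and 2 with the first residual component as a covariate (Hdac5 and Hdac11), where all genes gave 676 and 813 against 442. Leaving out 1 library gave 0 to 0 members in both, and in every exposure and interaction test, which stayed at 0 under all settings run. The averaged exposure change turned sign without 1 library for 3 named genes: it ran from -0.0086 (without diesel exhaust TAC replicate 1) to 0.985 for Dnmt3b, from -0.0123 (without diesel exhaust sham replicate 2) to 0.313 for Mbd1 and from -0.139 to 0.0386 for Smyd1, which was above 0 without filtered air TAC replicate 1 and, at 0.0192, without diesel exhaust sham replicate 2. None of these was called before or after, and the cause was not tested. No scaling moved the median of all genes by over 0.1. No paired analysis was possible because the labels give the groups no shared replicate numbers. Depth limits Uhrf1 and Dnmt3b, with 2 counts in their lowest library.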

Other observations

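The Y-linked demethylase genes Kdm5d and Uty, relatives of the members Kdm5a and Kdm6b, were present in every heart. Kdm5d was at 11.0 to 19.7 CPM and Uty at 12.9 to 28.2 CPM over the 12 libraries. Xist, the RNA of the inactive X chromosome, was at 0 to 2.92 CPM. Neither Kdm5d (-0.04 ± 0.17) nor Uty (0.05 ± 0.19) changed past the threshold with TAC averaged over exposures by edgeR, and neither did with the exposure (0.04 ± 0.17 and -0.21 ± 0.19).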
